A study of Mus musculus with 18 samples.

Results

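Genes that control when thymocytes leave the thymus and where they lodge afterwards were followed through RNA sequencing of maturing thymocytes. They were S1pr1, Klf2, Foxo1, Itgb7, Itga4 and Itgae, chosen by name and found in the count files by Entrez Gene ID. These are 6 of the 27179 genes in the files, and all 6 passed the filter on low counts that left 12798 genes for testing. RNA came from CD69+ thymocytes with low or high surface MHC I, called MHC I low and MHC I high here, sorted from 3 mice of each of 3 genotypes, which gave 18 samples in 6 groups. CD69 appears on thymocytes whose antigen receptor was recently engaged. Surface MHC I increases as positively selected cells mature, so that cells with high MHC I represent the later of the 2 stages. WT mice were the controls. HoilΔCd4 mice (labelled Hoil) delete Rbck1, which encodes HOIL-1, through a Cre driven by Cd4, so that only cells that have reached the double-positive stage and their progeny lose it. Sharpincpdm mice (labelled Sharpin) carry the spontaneous cpdm mutation of Sharpin in every cell, and the line came from a C57BL/Ka stock crossed to C57BL/6 for 2 generations. HOIL-1, SHARPIN and the ligase HOIP form the linear ubiquitin chain assembly complex (LUBAC), and the comparisons ask how its loss alters gene expression at either stage. The sort left out dead cells, γδ T cells, NK, B and myeloid cells, MHC II-bearing cells, and cells with CD25 or CD44. Ages of these mice were not given in the sources used here.

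Thymocytes leave the thymus by moving up a gradient of sphingosine-1-phosphate (S1P), which they sense through the receptor encoded by S1pr1. The transcription factor FOXO1, active when phosphatidylinositol 3-kinase signalling is low, promotes expression of Klf2, and KLF2 in turn activates S1pr1, while CD69 removes the receptor from the surface of recently signalled cells. Homing receptors are acquired over the same period. The integrin β7 chain (Itgb7) pairs either with α4 (Itga4), giving the receptor for the gut addressin MAdCAM-1, or with αE (Itgae, CD103), which binds E-cadherin on epithelium. The α4 chain also pairs with β1. Expression of Itgae in the thymus is characteristic of the CD8 lineage and depends on transforming growth factor β (TGF-β) and RUNX3.

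Each sample held between 10577966 and 16266128 counted reads, with a median of 13979793, and levels are given as CPM, the count scaled to library size after TMM normalisation. Rbck1 read between 217 and 268 CPM in WT, between 0.271 and 0.779 CPM in HoilΔCd4 MHC I low and between 3.72 and 8.94 CPM in HoilΔCd4 MHC I high samples. Sharpin transcripts remained in Sharpincpdm mice, with 66.4 to 77.9 CPM against 85.9 to 97.3 CPM in WT, so transcript level alone separated those labels only modestly. One library stood apart. The MHC I high sample of HoilΔCd4 mouse 2 had 339 CPM of the chromosome Y gene Ddx3y together with 64.6 CPM of Xist, whereas its MHC I low sample had 0.606 CPM of Xist, and it also had the highest Rbck1 of its group. Whether this library holds some RNA of another sample was not tested, and its values are to be read with that limit. The comparisons that include HoilΔCd4 samples were refitted without that mouse by limma on log2 CPM, and for the 6 genes by limma-voom. Lost calls are given below. The edgeR and DESeq2 fits and the fit of only the groups compared were not repeated without it. All WT mice were female, as were HoilΔCd4 mouse 3 and Sharpincpdm mouse 2, and the other mutant mice were male. The remaining males also had more Xist in MHC I high than in MHC I low samples, at far lower levels. HoilΔCd4 mouse 1 had 2.58 against 0.871 CPM. Sharpincpdm mouse 1 had 4.74 against 1.69 CPM, and Sharpincpdm mouse 3 had 7.49 against 1.00 CPM. H2-K1, which encodes an MHC I heavy chain of the kind used for the sort, read 157 to 232 CPM in MHC I low and 1725 to 2118 CPM in MHC I high samples. T cell markers summed to 4780 to 5960 CPM per sample. B cell markers summed to 3.71 to 6.48 CPM, myeloid and dendritic markers to 6.52 to 13.9 CPM and thymic epithelial markers to 6.03 to 12.8 CPM. The list of NK and innate lymphoid markers summed to 1.70 to 3.43 CPM in MHC I low and 31.3 to 57.0 CPM in MHC I high samples. Nkg7, a granule protein gene also used by CD8 T cells, led it in every MHC I high group, and Ncr1, which defines NK cells, was at 0 in all 18 samples. These are bulk samples, in which fewer cells of a type and less RNA per cell cannot be told apart.

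All 6 genes rose from the earlier to the later stage in each genotype. The steepest changes were those of Itgae and S1pr1, followed by Klf2, Itgb7, Foxo1 and Itga4, in that order in all 3 genotypes. The counts of 6 called out of 6 stand beside a background of 54.4% of all tested genes called in WT, 45.3% in HoilΔCd4 and 54.6% in Sharpincpdm mice. Each of the 6 genes was higher in the MHC I high sample of every mouse, where 66.8%, 65.9% and 71.7% of tested genes moved one way in all 3 mice of the WT, HoilΔCd4 and Sharpincpdm genotypes. The median log2 fold change of the 6 genes was 3.31 in WT, 3.18 in HoilΔCd4 and 3.26 in Sharpincpdm mice, while the median over all tested genes was between −0.00423 and 0.000987.

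**Figure D1:**
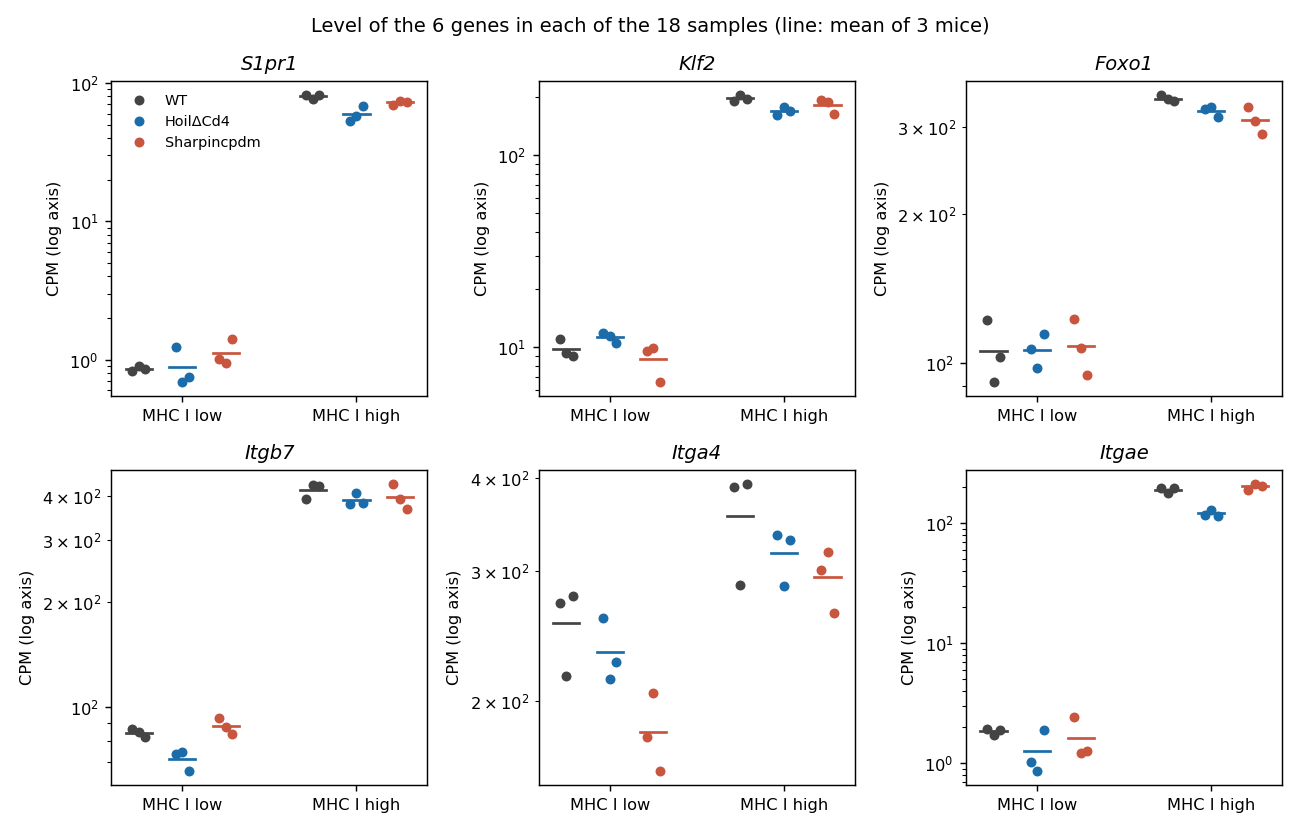
Level of each gene (CPM, log axis) in every sample, with MHC I low samples on the left and MHC I high samples on the right of each panel. Points are mice 1, 2 and 3 of WT, HoilΔCd4 and Sharpincpdm, and lines are group means. Within each gene and genotype all MHC I high samples lie above all MHC I low samples, and for Itgae the 3 HoilΔCd4 MHC I high samples (116 to 129 CPM) lie below the other MHC I high samples (178 to 213 CPM).

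S1pr1, the S1P receptor used for egress (Entrez Gene 13609, chromosome 3, 115710433 to 115715055 of GRCm38), was close to the detection limit before maturation. In WT mice 1, 2 and 3 it read 0.832, 0.895 and 0.860 CPM in MHC I low and 81.4, 77.3 and 81.4 CPM in MHC I high cells. HoilΔCd4 mice had 1.23, 0.692 and 0.746 CPM and then 52.8, 58.0 and 68.5 CPM. Sharpincpdm mice had 1.01, 0.947 and 1.42 CPM and then 69.6, 74.6 and 73.2 CPM. No MHC I low sample came near any MHC I high sample. The MHC I low levels rest on 8 to 17 reads per sample, 38 reads over the 3 WT samples (exact Poisson 95% interval 26.9 to 52.2, counting error only). The log2 fold change was 6.44 in WT (SE 0.132, adjusted p = 7.83e-27), 5.998 in HoilΔCd4 (SE 0.162, adjusted p = 1.68e-23) and 6 in Sharpincpdm mice (SE 0.138, adjusted p = 2.62e-25, limma), which correspond to 86.7-fold, 63.9-fold and 64.0-fold. By p-value S1pr1 ranked number 4 of the 12798 genes in WT.

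Klf2, the zinc finger factor that activates S1pr1 (Entrez Gene 16598, chromosome 8, 72319062 to 72321654), followed with a smaller relative change. WT mice had 11.0, 9.34 and 8.99 CPM in MHC I low and 192, 205 and 196 CPM in MHC I high cells. In HoilΔCd4 mice the values were 11.9, 11.5 and 10.6 CPM and then 161, 178 and 169 CPM. In Sharpincpdm mice they were 9.60, 9.90 and 6.61 CPM and then 195, 190 and 164 CPM. The groups of the 2 stages were far apart, and the ratio within a mouse ran from 13.5 in HoilΔCd4 mouse 1 to 24.8 in Sharpincpdm mouse 3. The log2 fold change was 4.31 in WT (SE 0.0817, adjusted p = 3.18e-25), 3.90 in HoilΔCd4 (SE 0.100, adjusted p = 7.11e-22) and 4.36 in Sharpincpdm mice (SE 0.0857, adjusted p = 8.47e-25, limma).

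Foxo1, the factor upstream of Klf2 (Entrez Gene 56458, chromosome 3, 52268337 to 52350109), was already abundant in MHC I low cells. WT mice had 122, 91.7 and 103 CPM in MHC I low and 347, 341 and 338 CPM in MHC I high cells. HoilΔCd4 mice had 107, 97.6 and 115 CPM and then 325, 329 and 313 CPM. Sharpincpdm mice had 123, 107 and 94.8 CPM and then 328, 308 and 290 CPM. The gain was about the same in all genotypes, 3.20-fold in WT (log2 fold change 1.68, SE 0.0686, adjusted p = 9.99e-16), 3.02-fold in HoilΔCd4 (1.60, SE 0.0843, adjusted p = 1.97e-13) and 2.83-fold in Sharpincpdm mice (1.503, SE 0.0719, adjusted p = 1.6e-14, limma).

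Itgb7, the β chain shared by both homing integrins (Entrez Gene 16421, chromosome 15, 102215994 to 102233405), rose between 4.48-fold and 5.51-fold. WT mice had 86.5, 85.2 and 82.1 CPM in MHC I low and 392, 430 and 427 CPM in MHC I high cells. HoilΔCd4 mice had 73.6, 74.7 and 66.0 CPM and then 379, 409 and 384 CPM. Sharpincpdm mice had 93.4, 87.8 and 83.7 CPM and then 434, 394 and 368 CPM. In MHC I low cells the 3 HoilΔCd4 samples were below all others. The log2 fold change was 2.31 in WT (SE 0.0489, adjusted p = 1.57e-26), 2.46 in HoilΔCd4 (SE 0.0601, adjusted p = 1.54e-24) and 2.16 in Sharpincpdm mice (SE 0.0512, adjusted p = 3.67e-25, limma).

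Itga4, the α4 chain (Entrez Gene 16401, chromosome 2, 79255426 to 79333114), changed least of the 6. WT mice had 271, 216 and 278 CPM in MHC I low and 389, 287 and 393 CPM in MHC I high cells. HoilΔCd4 mice had 259, 214 and 226 CPM and then 335, 286 and 330 CPM. Sharpincpdm mice had 179, 205 and 161 CPM and then 301, 318 and 263 CPM. WT mouse 2 was the lowest WT mouse at both stages, and its MHC I high value lay only just above the highest WT MHC I low value. The log2 fold change was 0.53 in WT (SE 0.0962, adjusted p = 0.00026), 0.43 in HoilΔCd4 (SE 0.118, adjusted p = 0.00777) and 0.69 in Sharpincpdm mice (SE 0.101, adjusted p = 3.47e-05, limma). The call in HoilΔCd4 mice was lost without HoilΔCd4 mouse 3 (adjusted p = 0.0822).

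Itgae, the αE chain (Entrez Gene 16407, chromosome 11, 73090505 to 73147449), had the largest fold change of the 6. WT mice had 1.92, 1.73 and 1.88 CPM in MHC I low and 199, 178 and 196 CPM in MHC I high cells. HoilΔCd4 mice had 1.02, 0.865 and 1.90 CPM and then 119, 129 and 116 CPM. Sharpincpdm mice had 2.43, 1.21 and 1.26 CPM and then 192, 213 and 205 CPM. The MHC I high levels of HoilΔCd4 mice were the lowest, with a gap to every other MHC I high sample. The MHC I low levels came from 10 to 36 reads per sample. The log2 fold change was 6.65 in WT (SE 0.196, adjusted p = 1.57e-13), 6.55 in HoilΔCd4 (SE 0.241, adjusted p = 4.08e-12) and 7.01 in Sharpincpdm mice (SE 0.206, adjusted p = 1.36e-13, limma). Without HoilΔCd4 mouse 2 the log2 fold changes in HoilΔCd4 mice were 5.86 for S1pr1, 3.87 for Klf2, 1.53 for Foxo1, 2.45 for Itgb7, 0.459 for Itga4 and 6.32 for Itgae, and all 6 remained called, with adjusted p-values up to 0.0224 (limma).

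The order of the 6 group levels was read for each gene from the ranges of its 3 mice. For every gene the 3 MHC I high groups came above the 3 MHC I low groups, and only for Itga4 did the ranges of neighbouring groups overlap across that boundary (Sharpincpdm MHC I high, 263 to 318 CPM, and WT MHC I low, 216 to 278 CPM). S1pr1 in MHC I high cells was ordered WT, Sharpincpdm and HoilΔCd4 with no overlap between neighbours. Itgae was ordered Sharpincpdm, WT and HoilΔCd4, with overlap between the first 2 groups and none with HoilΔCd4. For Klf2 and Itgb7 the MHC I high neighbours overlapped throughout.

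The promoters of the genes that rose together were searched for sequence that could be shared. RefSeq start sites of GRCm38.p6 were matched for 4 of the 6 genes, Klf2, Foxo1, Itgb7 and Itga4, and the 250 bases before the start were read 5′ to 3′ on the strand of the gene. The searches were for the CACCC box that KLF factors bind, for the FOXO core TGTTTAC and for the NF-κB consensus, on both strands. Windows that held a match are shown for the factor itself and for the integrin genes, with CACCC or its reverse complement in capitals. They lie at chr8:72318812-72319061 (plus strand), chr15:102231936-102232185 (minus strand) and chr2:79255176-79255425 (plus strand).
Klf2: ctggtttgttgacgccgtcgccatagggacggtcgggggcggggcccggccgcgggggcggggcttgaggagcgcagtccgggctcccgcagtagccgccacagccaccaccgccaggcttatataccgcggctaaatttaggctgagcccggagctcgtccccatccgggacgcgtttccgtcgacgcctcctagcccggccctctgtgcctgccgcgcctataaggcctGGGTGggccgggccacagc
Itgb7: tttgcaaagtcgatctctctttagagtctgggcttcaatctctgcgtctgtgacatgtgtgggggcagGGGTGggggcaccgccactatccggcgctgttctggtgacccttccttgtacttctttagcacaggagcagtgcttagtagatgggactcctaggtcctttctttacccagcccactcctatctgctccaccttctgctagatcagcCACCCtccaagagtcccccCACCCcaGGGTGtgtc
Itga4: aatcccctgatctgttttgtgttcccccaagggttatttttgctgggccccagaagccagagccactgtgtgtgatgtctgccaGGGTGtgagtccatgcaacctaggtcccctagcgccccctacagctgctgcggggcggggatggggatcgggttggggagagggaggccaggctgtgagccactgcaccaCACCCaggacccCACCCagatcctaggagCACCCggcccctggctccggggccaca
The Klf2 window held 1 match, on the opposite strand 19 bases before the start. The Itgb7 and Itga4 windows held 4 each, and 3 of the 4 in Itgb7 and 3 of the 4 in Itga4 lay within 56 bases of the start. The Foxo1 window had none. This 5-letter motif is common, since 52.0% of the 32851 RefSeq promoter windows of the same length held it. None of the 4 windows held TGTTTAC, which occurred in 3.17% of all windows, or the NF-κB consensus, which occurred in 3.90%. GC content was 71.2% in Klf2, 64.0% in Itga4 and 56.0% in both Itgb7 and Foxo1, against a median of 52.4% over all windows. The Itgb7 start used by RefSeq lies inside the span of the gene.

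The genes whose log2 CPM followed each of the 6 most closely were taken from Pearson's r over the 18 samples. The samples form 2 clusters by fraction, so these values mostly describe the step between stages. For S1pr1 the nearest genes were Emp3 (r = 0.997), H2-K1 (0.996) and Stk10 (0.996). For Klf2 they were Cyth4, Ripor2 and Tmie (each 0.995), and for Foxo1 they were Klf2 (0.992), Il2rb (0.992) and Ripor2 (0.990). Itgb7 was closest to Lfng (0.997), H2-K1 (0.997) and Sorl1 (0.995), and Itgae to Arhgef18 (0.995), Pde3b (0.995) and Rflnb (0.994). Itga4 had the loosest neighbours, Utrn (0.951), Dnah8 (0.947) and Arhgap20 (0.944). Klf2 was thus the nearest of all tested genes to Foxo1, and H2-K1 was among the nearest to S1pr1 and to Itgb7.

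Per length of transcript, the balance of the integrin chains changed between stages. Length-scaled levels (RPKM, CPM per kilobase of transcript) of WT MHC I low cells were 31.6 ± 0.840 (SD, n = 3) for Itgb7, 25.9 ± 3.43 for Itga4 and 0.403 ± 0.0222 for Itgae. At the later stage they were 156 ± 7.90, 36.2 ± 6.13 and 41.8 ± 2.5. The RPKM of Itga4 was thus 0.690 to 0.920 of that of Itgb7 in WT MHC I low samples and 0.181 to 0.270 of it in WT MHC I high samples. The ratio of Itgae to Itga4 in RPKM was 0.0145 to 0.0172 in WT MHC I low samples and 1.07 to 1.34 in WT MHC I high samples. In HoilΔCd4 MHC I high samples the same ratio was 0.753 to 0.967, below 1 in all 3 mice, and in Sharpincpdm MHC I high samples it was 1.37 to 1.68. The highest HoilΔCd4 value was that of mouse 2, and the other 2 mice had 0.761 and 0.753. The 3 genotypes did not overlap in MHC I high cells. The ratio of Itga4 to Itgb7 in MHC I low cells was 0.520 to 0.635 in Sharpincpdm mice, below WT in every sample. Each of these 4 comparisons gave p = 0.1 in a two-sided exact permutation test, which is the smallest value that 3 against 3 mice allow (Benjamini-Hochberg adjusted over 18 ratio tests, 0.257). Itgb1, which encodes the other partner of α4, fell between stages in WT, from 234 ± 9.39 to 168 ± 20 CPM (log2 fold change −0.49, SE 0.0506, adjusted p = 9.09e-10, limma).

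**Figure D2:**
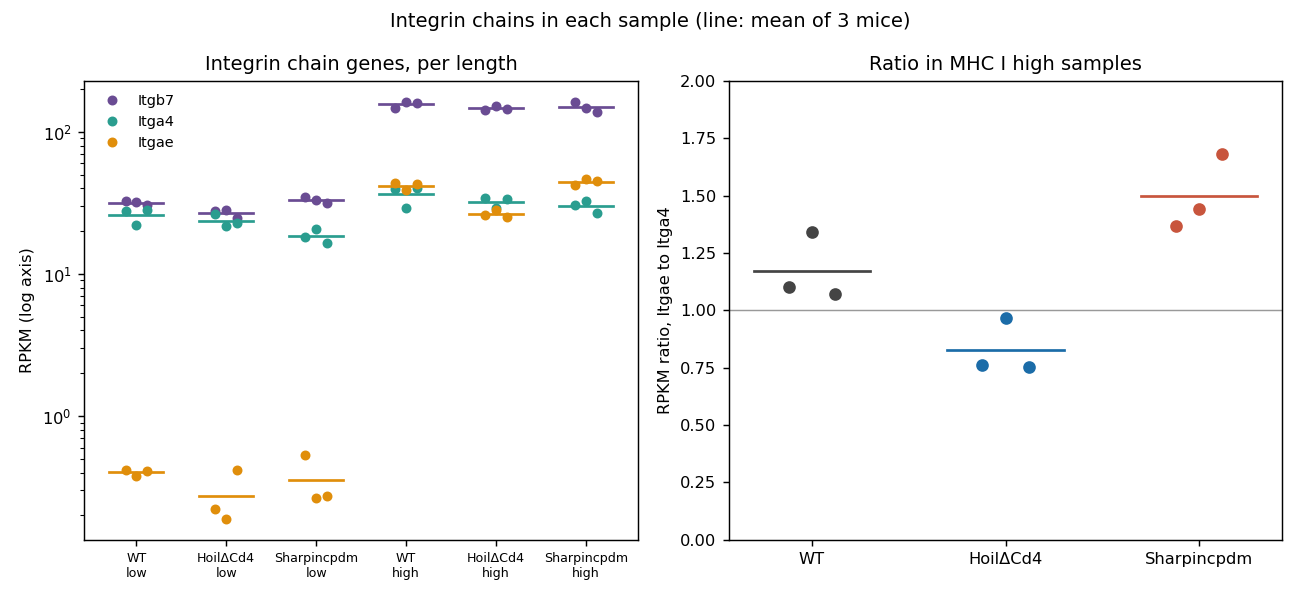
Left, RPKM (log axis) of Itgb7, Itga4 and Itgae in every sample by genotype and fraction, with lines at group means. Right, ratio of Itgae to Itga4 RPKM in the MHC I high samples, with a line at 1 and a linear axis from 0, where the 3 HoilΔCd4 mice lie between 0.753 and 0.967 and all WT and Sharpincpdm mice lie above 1.

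HoilΔCd4 mice were compared with WT within each fraction. Sex was not balanced, since all WT mice and only HoilΔCd4 mouse 3 were female. At the earlier stage (MHC I low) 0 of the 6 genes were called by limma, with 2 at an unadjusted p under 0.05, beside 0.985% of all tested genes called. Itgb7 came closest, with no overlap between groups (66.0 to 74.7 CPM against 82.1 to 86.5 CPM, log2 fold change −0.25, 95% interval −0.386 to −0.120, adjusted p = 0.0505, limma). It was the 1 gene of the 6 whose groups did not overlap there, where 14.7% of tested genes did not. Its adjusted p lay between 0.0163 and 0.408 over the alternatives and was under the threshold in 6 of them. Itgae had a log2 fold change of −0.57 with overlapping groups (95% interval −1.13 to −0.0104, adjusted p = 0.441, limma), since HoilΔCd4 mouse 3 (1.90 CPM) reached the WT range. For S1pr1, Klf2, Foxo1 and Itga4 the log2 fold changes were 0.0214, 0.20, 0.00415 and −0.14, with 95% intervals that included 0.

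In MHC I high cells of HoilΔCd4 mice Itgae, S1pr1 and Klf2 were lower than in WT, with 95% intervals that left out 0. The calls differed between fits that differ in design and in how they estimate the spread. Itgae was at 121 ± 6.84 CPM against 191 ± 11.4 CPM in WT (SD, n = 3), with no overlap, a log2 fold change of −0.67 (95% interval −1.18 to −0.171). S1pr1 was at 59.8 ± 7.96 against 80.0 ± 2.38 CPM, again with no overlap, a log2 fold change of −0.42 (95% interval −0.740 to −0.0965). Klf2 was at 169 ± 8.44 against 197 ± 6.67 CPM without overlap, a log2 fold change of −0.21 (95% interval −0.409 to −0.00768). The limma fit of all 6 groups called 0 of the 6 genes, with 3 at an unadjusted p under 0.05, beside 6.65% of all genes called. Its adjusted p was 0.103 for Itgae, 0.105 for S1pr1 and 0.207 for Klf2. That fit holds 1 variance per gene for both fractions, and the MHC I low counts of Itgae and S1pr1 were at most 36 reads. The SE in that fit was 0.235 for Itgae and 0.158 for S1pr1. In limma on only the HoilΔCd4 and WT MHC I high samples it was 0.0591 and 0.0764. Whether the MHC I low counts bear on the calls was not tested. When counts were modelled by edgeR's quasi-likelihood test, Itgae (adjusted p = 1.32e-05) and S1pr1 (adjusted p = 0.00286) were called, beside 3.16% of all genes. DESeq2 called the same 2 genes (adjusted p = 4.42e-15 and 0.000578), beside 4.10% of the 11804 genes to which it gave an adjusted p. limma-voom, which weights each count by its precision, called Itgae (adjusted p = 1.86e-08), S1pr1 (0.000186) and Klf2 (0.0350), beside 6.83% of all genes. limma on log2 CPM with only the HoilΔCd4 and WT MHC I high samples called these 3 as well (adjusted p = 8.5e-06, 0.00254 and 0.0327), beside 5.92% of all genes. The log2 fold changes differed little between these fits, from −0.68 to −0.66 for Itgae and from −0.43 to −0.42 for S1pr1.

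Without HoilΔCd4 mouse 2, which had the highest Itgae of its group, the log2 fold change of Itgae was −0.727 (adjusted p = 0.263, limma on log2 CPM) and −0.733 by limma-voom (adjusted p = 1.17e-07). That of S1pr1 was −0.425 (adjusted p = 0.315) and −0.446 by limma-voom (adjusted p = 0.00213), and that of Klf2 was −0.255 (adjusted p = 0.37), with an adjusted p of 0.0494 by limma-voom. The edgeR and DESeq2 fits and the fit of only the groups compared were not repeated without that mouse. An exact permutation test over the 3 against 3 mice cannot go below p = 0.1 for any single gene. The groups of 4 of the 6 genes (Itgae, S1pr1, Klf2 and Foxo1) did not overlap, each lower in HoilΔCd4 mice, where 19.6% of all genes had groups that did not overlap. Foxo1 had a log2 fold change of −0.0776 (95% interval −0.248 to 0.0926), Itgb7 of −0.0973 (−0.217 to 0.0222) and Itga4 of −0.24 (−0.490 to 0.0035), and none was called by any of these 5 fits. Without WT mouse 2, the lowest WT mouse, Itga4 was called (log2 fold change −0.323, adjusted p = 0.018, limma), and without Sharpincpdm mouse 1, which is in neither group but enters the shared variance, Itgae was (−0.68, adjusted p = 0.00597). With Xist as a covariate in limma, the log2 fold change was −0.626 for Itgae (adjusted p = 0.205) and −0.442 for S1pr1 (0.109). It was −0.189 for Klf2 (0.276).

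**Figure D3:**
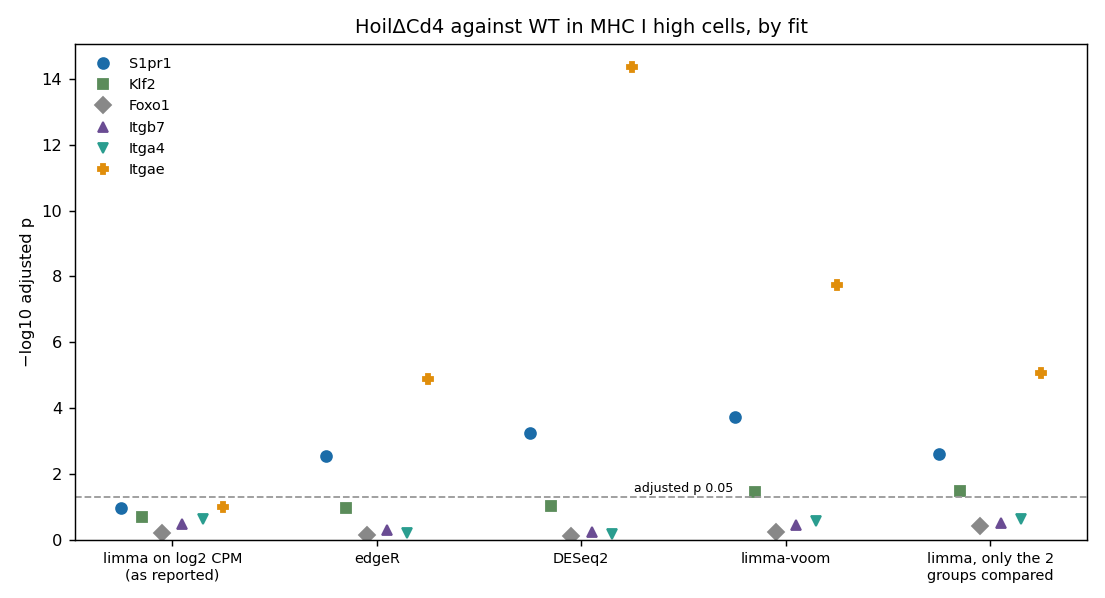
Adjusted p (as −log10) of the 6 genes for HoilΔCd4 against WT in MHC I high cells under 5 fits, with the dashed line at 0.05. Itgae and S1pr1 lie below the line in the limma fit of all 6 groups (0.103 and 0.105) and above it in the other 4 fits. Foxo1, Itgb7 and Itga4 lie below it in all 5.

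Double-positive markers and other genes of maturation were read in the same cells. Of 9 double-positive thymocyte markers, 5 were higher and 0 lower in HoilΔCd4 than in WT MHC I high cells, beside 6.65% of all tested genes called. Rag1, a recombinase gene switched off as cells mature, was at 149 ± 36.2 against 84.7 ± 8.21 CPM (log2 fold change 0.89, adjusted p = 0.0047, limma), and Rag2 (1.17), Arpp21 (1.07) and Dntt (0.91) were among the others called. In the refit without HoilΔCd4 mouse 2 the 5 kept their sign and 2 stayed called, among them Arpp21 (0.998, adjusted p = 0.000411), while Rag1 (0.706, adjusted p = 0.102), Rag2 (0.977, 0.052) and Dntt (0.738, 0.0741) did not. In that fit 1.39% of all genes were called. Cd4 (0.17), Cd8a (0.0109), Cd8b1 (0.12) and Cd1d1 (−0.26) were not. The whole list summed to 2220 to 2610 CPM in HoilΔCd4 and 2010 to 2230 CPM in WT MHC I high samples, and none of the 9 was at 0. In Sharpincpdm MHC I high cells 5 of the 9 were higher as well, among them Rag1 (0.51), beside 8.62% of all genes called. The list summed to 2280 to 2530 CPM in those cells. H2-K1 was at 1809 ± 124 CPM in HoilΔCd4 and 2003 ± 27.0 CPM in WT MHC I high samples (log2 fold change −0.16, adjusted p = 0.115, limma). Of 3 NK and innate lymphoid genes tested, Klrd1 (−1.86) and Eomes (−1.14) were lower in HoilΔCd4 MHC I high cells, beside the same 6.65% of all genes. That list summed to 31.3 to 49.4 CPM against 42.4 to 52.8 CPM in WT. Neither Klrd1 nor Eomes was called without HoilΔCd4 mouse 2 (−1.46, adjusted p = 0.151, and −1.40, adjusted p = 0.0563). The part of these differences in the levels of Itgae, S1pr1 and Klf2 was not tested. Of the CD8 lineage genes, Runx3 had 128 ± 4.16 against 121 ± 2.54 CPM (log2 fold change 0.07) and Cd8a 765 ± 90.8 against 778 ± 43.8 CPM.

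Sharpincpdm mice gave a different set of values. Their C57BL/Ka-derived background cannot be told apart from the loss of SHARPIN, here or against HoilΔCd4 mice. Sex was not balanced either, since all WT mice and only Sharpincpdm mouse 2 were female. At the earlier stage (MHC I low) 1 of the 6 genes was called, beside 12.2% of all tested genes. That gene was Itga4, at 182 ± 22.1 CPM against 255 ± 33.7 CPM in WT, where the highest Sharpincpdm sample (205 CPM) lay below the lowest WT sample (216 CPM). Its log2 fold change was −0.48 (SE 0.117, adjusted p = 0.0165, limma). The call was lost with Xist as a covariate (log2 fold change −0.411, adjusted p = 0.0601), without WT mouse 1 (−0.404, 0.107), without WT mouse 3 (−0.39, 0.0835) and without Sharpincpdm mouse 1 (−0.502, 0.0585), with the direction and most of the size retained. The groups of 2 genes did not overlap, Itga4 and S1pr1, where 30.0% of all genes had groups that did not. S1pr1 was higher in each Sharpincpdm sample than in any WT sample, with a log2 fold change of 0.29 (95% interval −0.0375 to 0.616, adjusted p = 0.253, limma). These levels rest on 11 to 17 reads per Sharpincpdm and 11 to 14 per WT sample. The exact Poisson 95% intervals of the summed reads overlapped (31.1 to 57.9 and 26.9 to 52.2). Itgae without Sharpincpdm mouse 1, whose 36 reads were the most of any MHC I low sample, had a log2 fold change of −0.56 (adjusted p = 0.0428, limma), against −0.26 (adjusted p = 0.531) with it.

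In MHC I high cells of Sharpincpdm mice 0 of the 6 genes were called by limma, with 1 at an unadjusted p under 0.05, beside 8.62% of all genes. Itga4 was at 294 ± 28.3 against 356 ± 60.2 CPM (log2 fold change −0.32, 95% interval −0.547 to −0.0938, adjusted p = 0.0782, limma). The groups overlapped through WT mouse 2 (287 CPM), and without that mouse the gene was called (log2 fold change −0.399, adjusted p = 0.00181). S1pr1 (−0.15) and Foxo1 (−0.14) had groups that did not overlap, 2 of the 6 genes against 22.3% of all genes, and 95% intervals that included 0. Itgae was at 203 ± 10.8 against 191 ± 11.4 CPM, a log2 fold change of 0.0903 (95% interval −0.371 to 0.552, adjusted p = 0.856, limma).

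**Figure D4:**
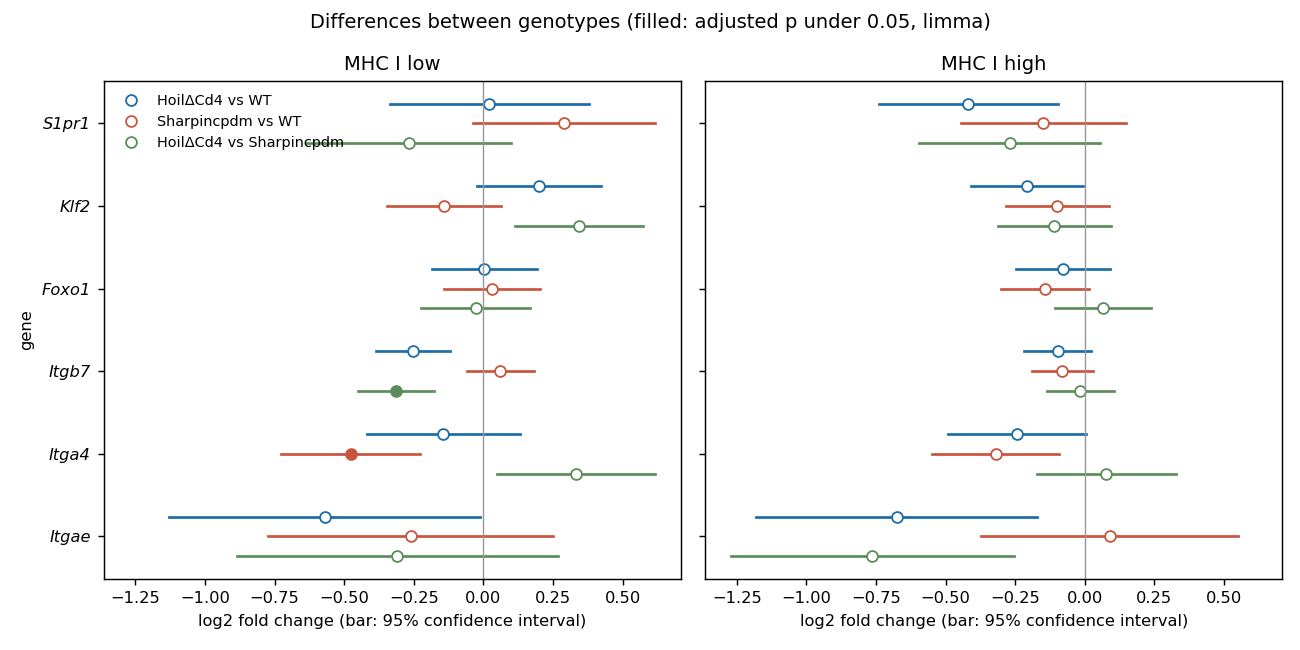
Log2 fold change of each gene (x axis, with 95% confidence intervals from limma) between genotypes in MHC I low (left) and MHC I high cells (right). Filled points passed an adjusted p of 0.05. They are Itga4 in Sharpincpdm against WT (−0.48) and Itgb7 in HoilΔCd4 against Sharpincpdm (−0.31), both in MHC I low cells.

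The mutants were also set against each other. Both comparisons with WT share the WT samples, so the direct contrast is given. At the earlier stage (MHC I low) 1 of the 6 genes was called, beside 9.48% of all genes. Itgb7 was at 71.5 ± 4.75 CPM in HoilΔCd4 and 88.3 ± 4.85 CPM in Sharpincpdm mice, with no overlap, and had a log2 fold change of −0.31 (SE 0.0670, adjusted p = 0.00253, limma). It stayed called without HoilΔCd4 mouse 2 (log2 fold change −0.344, adjusted p = 0.00478). H2-K1 was lower in HoilΔCd4 than in Sharpincpdm mice in this fraction too (log2 fold change −0.28, adjusted p = 0.00832) and at the later stage (−0.22, adjusted p = 0.0223, limma), the latter not called without HoilΔCd4 mouse 2 (−0.179, adjusted p = 0.214), and its part in these results was not tested. Klf2 was higher in every HoilΔCd4 than in every Sharpincpdm sample, with a log2 fold change of 0.34 (95% interval 0.112 to 0.572, adjusted p = 0.0519, limma). Over the alternatives its adjusted p lay between 0.0137 and 0.318 and was under the threshold in 9. Itga4 had a log2 fold change of 0.33 (95% interval 0.0498 to 0.615, adjusted p = 0.137), and its groups did not overlap either, which made 3 of 6 genes without overlap beside 27.8% of all genes.

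In MHC I high cells 0 of the 6 genes were called between the mutants by limma, with 1 at an unadjusted p under 0.05, beside 6.73% of all genes. Itgae was at 121 ± 6.84 CPM in HoilΔCd4 and 203 ± 10.8 CPM in Sharpincpdm mice, 1.70-fold higher in the latter with no overlap (log2 fold change −0.76, 95% interval −1.27 to −0.255, adjusted p = 0.0713, limma). It was called by edgeR (adjusted p = 5.43e-07, 4.05% of all genes called), by DESeq2 (3.88e-20, 4.73%), by limma-voom (4.73e-10, 6.70%) and with only the groups compared (6.67e-08, 5.67%). Without HoilΔCd4 mouse 2 its adjusted p was 0.168 in limma on log2 CPM and 3.5e-09 in limma-voom, and the remaining fits were not repeated. S1pr1 had no overlap either, with a log2 fold change of −0.27 (95% interval −0.595 to 0.0562, adjusted p = 0.344, limma), and limma-voom (0.0143) and the fit of only these groups (0.0423) called it. With that mouse left out, limma-voom no longer called S1pr1 (log2 fold change −0.293, adjusted p = 0.0561). These were the 2 of 6 genes without overlap, beside 22.9% of all genes. Cd8a was lower in HoilΔCd4 than in Sharpincpdm MHC I high cells as well (765 ± 90.8 against 948 ± 88.7 CPM, log2 fold change −0.31, adjusted p = 0.00736, limma), and its part in the difference of Itgae was not tested.

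Whether the step between stages differed between a mutant and WT was tested as the difference of the log2 changes. None of the 6 genes was called in HoilΔCd4 mice (2 at an unadjusted p under 0.05, beside 0.398% of all genes called) or in Sharpincpdm mice (1 at an unadjusted p under 0.05, beside 3.13%). Klf2 came nearest in HoilΔCd4 mice, where the step was smaller by 0.41 (difference −0.41, 95% interval −0.675 to −0.143, adjusted p = 0.205, limma). Without HoilΔCd4 mouse 2 the differences were −0.443 for Klf2 (adjusted p = 0.446) and −0.577 for S1pr1 (adjusted p = 0.579). For S1pr1 the difference was −0.44 in HoilΔCd4 (95% interval −0.865 to −0.0139, adjusted p = 0.459) and −0.44 in Sharpincpdm mice (−0.827 to −0.0484, adjusted p = 0.215). For Itgae it was −0.10 in HoilΔCd4 mice (−0.769 to 0.562, adjusted p = 0.948), an interval that could not exclude a sizeable change in either direction with the few reads of the MHC I low samples.

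The pathways around the 6 genes were described with lists of other genes. Of 20 FOXO1-KLF2 programme genes tested, 9 were higher and 5 lower in MHC I high than in MHC I low WT cells, with a median log2 fold change of −0.00314, where 54.4% of all tested genes were called. Pik3cd (1.23), the homing receptor gene Ccr7 (1.20) and Pik3ip1 (0.96), an inhibitor of phosphatidylinositol 3-kinase, rose, and the pro-apoptotic Bcl2l11 (−1.35), Il7r (−0.44) and Akt1 (−0.36) fell in WT. In HoilΔCd4 mice 8 rose and 6 fell, beside 45.3% of all genes called, and in Sharpincpdm mice 9 rose and 6 fell, beside 54.6%. Against WT, HoilΔCd4 MHC I low cells had lower Bcl2l11 (−0.37, adjusted p = 0.00234) and Il7r (−0.27, adjusted p = 0.00807). HoilΔCd4 MHC I high cells had 4 lower genes and 0 higher ones, beside 6.65% of all genes called in that comparison. Cdkn1b (−0.22), the cell cycle inhibitor, Sgk1 (−0.46), a kinase that phosphorylates FOXO factors, and Il7r (−0.18) were lower in every mouse, and Klf3 (−0.31) was lower with overlapping groups. None of these 4 was called without HoilΔCd4 mouse 2, with log2 fold changes of −0.219 for Cdkn1b (adjusted p = 0.0699), −0.333 for Sgk1 (0.248), −0.144 for Il7r (0.271) and −0.331 for Klf3 (0.151). The median of the list was −0.0967, and that of all genes was −0.000266. In Sharpincpdm mice 4 genes were higher and 3 lower in MHC I low cells, beside 12.2% of all genes called. In MHC I high cells 1 was higher and 3 lower, beside 8.62%. Bcl2l11 was lower in Sharpincpdm MHC I low cells too (−0.41, adjusted p = 4.1e-05, limma). Cdkn1b was also lower in Sharpincpdm MHC I high cells (−0.23, adjusted p = 0.0015, limma). Il7r was higher in Sharpincpdm mice at both stages (0.27 and 0.26).

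Of 20 genes that handle S1P or drive egress, 6 rose and 6 fell between stages in WT, with a median of −0.0281, a share of calls near the 54.4% of all genes. S1pr4, another S1P receptor gene, rose in WT (log2 fold change 2.34, adjusted p = 8.81e-23), in HoilΔCd4 (2.15) and in Sharpincpdm mice (2.17). The GTPase gene Rac2 (0.62) and Grk2 (0.60), whose kinase desensitises S1P receptors, rose in WT as well. Cd69, which opposes the receptor, fell from 404 ± 24 to 123 ± 13.6 CPM in WT (−1.76, adjusted p = 1.85e-18), and S1pr2 (−0.84) and Gnai3 (−0.41) fell with it. S1pr4 was lower in MHC I high cells of both mutants, at 69.7 ± 2.99 CPM in HoilΔCd4 (−0.37, adjusted p = 0.00526) and 70.5 ± 4.46 CPM in Sharpincpdm mice (−0.34, adjusted p = 0.00359) against 90.2 ± 1.85 CPM in WT. It was the only gene of this list called in HoilΔCd4 mice at that stage, beside 6.65% of all genes, with 0 called in MHC I low cells, beside 0.985%. In HoilΔCd4 MHC I high cells S1pr4 was not called without HoilΔCd4 mouse 2 (−0.36, adjusted p = 0.0655). Sharpincpdm MHC I low cells had higher Rac2 (0.25), Gnai2 (0.22) and Coro1a (0.17) and lower Cd69 (−0.34), and Cd69 was higher in HoilΔCd4 than in Sharpincpdm cells at both stages (0.40 and 0.41).

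Of 21 other integrin chains and activators, 7 rose and 9 fell between stages in WT, 5 and 8 in HoilΔCd4, and 5 and 13 in Sharpincpdm mice. Itgb3 (0.94), Apbb1ip (0.50) and Cd47 (0.43) rose in WT, and Rasgrp1 (−0.65), Rap1a (−0.64) and Itgb1 (−0.49) fell. The shares over all genes were 54.4%, 45.3% and 54.6%. Against WT, 1 of the 21 was called in HoilΔCd4 MHC I low cells (0.985% of all genes) and 2 in HoilΔCd4 MHC I high cells (6.65%), all higher. Itgb8, whose protein with αv activates latent TGF-β, was at 9.03 ± 2.37 against 3.06 ± 0.471 CPM at the earlier stage (log2 fold change 1.51, adjusted p = 0.000338) and at 7.59 ± 2.33 against 3.84 ± 0.217 CPM at the later one (0.87, adjusted p = 0.0127, limma). Itga3 was higher in HoilΔCd4 MHC I high cells (3.76 ± 0.549 against 2.21 ± 0.356 CPM, 0.84, adjusted p = 0.00964). When HoilΔCd4 mouse 2 was left out, Itgb8 stayed called at both stages (1.69 and 1.13, adjusted p = 0.00023 and 0.00969) and Itga3 did not (0.838, adjusted p = 0.0854). In Sharpincpdm mice 3 genes were higher (Itgb3, Fermt3 and Itgal) and Cd47 was lower in MHC I low cells, beside 12.2% of all genes called. Itgal alone was called, higher, in MHC I high cells, beside 8.62%.

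TGF-β signalling and lineage genes near Itgae numbered 15 tested genes, of which 8 rose and 3 fell between stages in WT, with a median of 0.143, beside 54.4% of all genes called. Cd8a (1.73), Runx3 (1.33) and the TGF-β receptor gene Tgfbr2 (0.97) rose, and Runx1 (−0.31), the CD4 lineage factor gene Zbtb7b (−0.36) and Cd4 (−0.20) fell. In HoilΔCd4 MHC I high cells, where Itgae was lowest, 2 were lower and 0 higher, beside 6.65% of all genes called. They were Skil (−0.28, adjusted p = 0.00526), a TGF-β target and repressor, and Tgfbr2 (333 ± 29.9 against 381 ± 9.80 CPM, −0.19, adjusted p = 0.0390, limma), and neither was called without HoilΔCd4 mouse 2 (−0.261, adjusted p = 0.0775, and −0.239, adjusted p = 0.0625). In Sharpincpdm mice, where Itgae was at WT levels, 4 were lower and 1 was higher in MHC I high cells, beside 8.62% of all genes called. Skil (−0.46), Tgfbr1 (−0.40) and Ski (−0.28) were lower and Cd8a (0.32) was higher. Smad7, an inhibitor induced by TGF-β, was lower in Sharpincpdm cells at both stages (−1.19, adjusted p = 1.43e-05, and −0.62), and had log2 fold changes of −0.38 and −0.31 in HoilΔCd4 cells, which were not called, except in MHC I low cells without HoilΔCd4 mouse 2 (−0.58, adjusted p = 0.049).

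Among 7 other homing receptor genes, 2 rose and 5 fell between stages in each genotype. The shares of all genes called were 54.4% in WT, 45.3% in HoilΔCd4 and 54.6% in Sharpincpdm mice. Selplg, the P-selectin ligand gene, rose (1.32 in WT, 1.44 in HoilΔCd4, 1.18 in Sharpincpdm mice), as did Cd44 (0.40, 0.53 and 0.26). The medullary and thymic chemokine receptor genes Ccr4 (−2.86, −2.54 and −3.00) and Ccr9 (−1.43, −1.28 and −1.35) fell, and so did Plxnd1 (−0.92, −0.76 and −0.93). Cxcr4, which holds immature thymocytes in the cortex, was the 1 gene of this list called in HoilΔCd4 against WT, in MHC I high cells (48.0 ± 9.34 against 34.4 ± 1.75 CPM, log2 fold change 0.46, adjusted p = 0.00247, limma), beside 6.65% of all genes. It stayed called without HoilΔCd4 mouse 2 (0.458, adjusted p = 0.0376). In Sharpincpdm MHC I low cells it was lower (47.6 ± 5.29 against 71.1 ± 4.24 CPM, −0.55, adjusted p = 0.00021, limma).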

How the data were processed

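RNA of 18 samples (2 fractions from each of 9 mice, 3 mice per genotype) was sequenced as 75-base single-end reads on an Illumina NextSeq from TruSeq libraries. The authors aligned reads to mm10 with Rsubread and assigned them to genes with featureCounts and its inbuilt RefSeq annotation, and the deposited values are raw counts per gene with a deposited Length column giving each gene's exon length in bases. Versions of these tools and their strand and multi-mapping settings were not given in the sources used here. Gene symbols were matched by Entrez ID for 25275 of 27179 genes, and unmatched genes held 0.655% of counts.

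Genes without a symbol, predicted genes named Gm with a number, chromosome Y genes and Xist were left out of the tests, and of the rest the 12798 genes that reached 0.5 CPM in 3 or more samples were kept. Counts were scaled by TMM (factors 0.9873 to 1.015) and turned into log2 CPM with a prior count of 1. One model of 6 groups was fitted with limma 3.58.1 (R 4.3.3, edgeR 4.0.16, statmod 1.5.0) with sample quality weights (0.6282 to 2.423), the mouse as a random block (correlation 0.224), and trended robust variances. P-values were adjusted by Benjamini-Hochberg over all tested genes, with a threshold of 0.05, and intervals are 95%. RPKM used the deposited lengths. This design follows the study's limma analysis, and edgeR and DESeq2 1.42.0 on the counts were alternatives. The edgeR and DESeq2 fits took all 6 groups together, without the mouse block or the sample quality weights. They thus treated the 2 fractions of a mouse as independent. The fractions were paired by mouse from the sample titles. Deviations of a mouse's 2 samples from their group means correlated at 0.0702 to 0.256 in the 9 mice. Samples of the same number from different genotypes reached 0.153, so these values alone do not establish the pairing. Promoters came from RefSeq (GRCm38.p6, the assembly of mm10).

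The members and gene lists were chosen with earlier results of these data known. Genes named from the lists were, in each comparison, up to 3 per direction with the smallest p among those called and changed the same way in every mouse (between genotypes, with groups that did not overlap). Others named here, among them Klf3, Itgal and Smad7 in HoilΔCd4 cells, were chosen after their values were seen. In all, 23 alternatives were tried, 2 of them (limma-voom, and limma-voom without HoilΔCd4 mouse 2) chosen after seeing the data, as was the refit of the gene lists without HoilΔCd4 mouse 2. The scripts were tested on simulated counts with the same spread for every gene, for HoilΔCd4 against WT MHC I high cells. Of 1.5-fold and 2-fold changes, limma called 32% and 77%, edgeR 34% and 81%, and DESeq2 35% and 76%. Unchanged genes made up 6.03% of the limma, 4.17% of the edgeR and 11.9% of the DESeq2 calls. Nothing says more of the replicates than that they are separate mice, and intervals on read counts cover counting error only. Some genes counted in the lists are not reported here by name.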

Additional observations from a re-analysis of the deposited data

Results flagged for a closer look

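The change between the 2 stages differed from that of WT mice, by limma's test of the difference itself over all tested genes, for 8 genes of the lists around the 6 members and for none of the 6. These genes were picked out by that test, after their values were seen. In HoilΔCd4 mice Cxcr4, the receptor gene that holds thymocytes in the cortex, fell less, with a difference of 0.69 (SE 0.123, adjusted p = 0.00805). Without HoilΔCd4 mouse 2 the difference was 0.657 and was not called (adjusted p = 0.1). In Sharpincpdm mice Cd8a rose more (0.44, SE 0.0841, adjusted p = 0.00399) and Bcl2l11 fell less (0.27, SE 0.0755, adjusted p = 0.0418). The TGF-β repressor gene Ski (−0.42, SE 0.0712, adjusted p = 0.000913), the GTPase gene Rac2 (−0.29, SE 0.0668, adjusted p = 0.0136) and the integrin gene Itgb3 (−0.31, SE 0.08, adjusted p = 0.031) rose less in Sharpincpdm than in WT mice. For the migration genes Gnai2 (−0.26, SE 0.0632, adjusted p = 0.0191) and Coro1a (−0.24, SE 0.0638, adjusted p = 0.0361) the difference was negative as well, and both fell between stages in Sharpincpdm mice.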

How the results depend on the processing

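All 6 genes kept their rise between stages in each genotype under every alternative run, except that Itga4 in HoilΔCd4 mice was not called without HoilΔCd4 mouse 3. S1pr1, with a minimum of 8 reads, was not tested under the filter of at least 10 counts in every sample, so counts under that setting are of the other 5 genes. Between genotypes the number of the 6 genes called moved, and the cause was not tested. In MHC I low cells of HoilΔCd4 against WT (0) it was 1 with library size scaling, at least 10 counts in every sample, a prior count of 3, and Xist as covariate, and 0 to 1 leaving out 1 mouse. In MHC I high cells (0) it was 2 by edgeR and DESeq2, 3 with only the groups compared, by voom and by voom without HoilΔCd4 mouse 2, and 0 to 1 leaving out 1 mouse. For Sharpincpdm against WT it was 0 with Xist as covariate and 0 to 1 leaving out 1 mouse in MHC I low cells (1), and 1 with at least 10 counts and 0 to 1 leaving out 1 mouse in MHC I high cells (0). For HoilΔCd4 against Sharpincpdm MHC I low cells (1) it was 2 with library size scaling, edgeR, DESeq2, at least 10 counts, no quality weights and only the groups compared, and 1 to 2 leaving out 1 mouse. In MHC I high cells (0) it was 1 by edgeR, DESeq2, no filter, a prior count of 3 and voom without HoilΔCd4 mouse 2, 2 by voom and only the groups compared, and 0 to 1 leaving out 1 mouse.

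The numbers of the mice are labels across genotypes, where samples of the same number correlated at −0.0314 to 0.153. With the mouse number as a replicate block, 1 gene was called in HoilΔCd4 against WT MHC I low cells (0 without it) and 2 in HoilΔCd4 against Sharpincpdm MHC I low cells (1 without it). Pairing the fractions of each mouse as a fixed block changed no call between stages.

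Differences near 0 changed sign, none of them called. For Foxo1 in HoilΔCd4 against WT MHC I low cells (0.00415) they were −0.00233 with library size scaling, −0.00586 with the mouse number block, −0.0697 without WT mouse 2, and −0.0121 and −0.0595 without HoilΔCd4 mouse 1 or 3 (range leaving out 1 mouse −0.0697 to 0.135). Foxo1 in Sharpincpdm against WT MHC I low cells was −0.0425 without WT mouse 2 and −0.0759 without Sharpincpdm mouse 1 (to 0.163), and in HoilΔCd4 against Sharpincpdm MHC I low cells 0.0225 without HoilΔCd4 mouse 2 (0.0295 by voom) and 0.0821 without Sharpincpdm mouse 1 (from −0.102). S1pr1 in HoilΔCd4 against WT MHC I low cells was −0.0334 with Xist as covariate, −0.00232 without WT mouse 1 and −0.235 without HoilΔCd4 mouse 1 (to 0.151). The difference in change was −0.0822 without WT mouse 1 and −0.0267 without Sharpincpdm mouse 3 for Klf2 in Sharpincpdm mice (to 0.159), and 0.272 without HoilΔCd4 mouse 3 for Itgae in HoilΔCd4 mice (from −0.333). Itgb7 in HoilΔCd4 against Sharpincpdm MHC I high cells was 0.0436 without Sharpincpdm mouse 1 (from −0.0768). The values in brackets are the other end of the range leaving out 1 mouse. Depth limits S1pr1 and Itgae in MHC I low cells, where no sample held more than 36 reads of either.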
